A study of Drosophila melanogaster with 8 samples.

Results

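The transcripts carried on ribosomes were compared with the total RNA of Drosophila S2 cells in which DENR had been knocked down. Of the 8 arrays in the study, 4 are compared here, 2 of ribosome-bound RNA and 2 of total RNA, all from cells treated with double-stranded RNA (dsRNA) against DENR. The other 4 arrays hold the same fractions of control cells treated with dsRNA against GFP, a jellyfish protein that flies lack. S2 is an established line of haemocyte-like cells from fly embryos. The labels give the genotype of every sample as wildtype, and the dsRNA is the treatment that differs between the groups. The ribosome-bound fraction is labelled as single ribosomes (80S) plus polysomes. The design text calls the 2 samples of each group biological replicates. Members were the non-control probe sets, with 1 per gene symbol, that with the highest mean over the 8 arrays. Of 17104 such features, the brightest 60%, 10262 features with 8164 named genes among them, were tested.

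An mRNA under translation carries ribosomes and sediments with them, whereas an mRNA that is repressed, still in the nucleus or waiting for initiation does not. DENR pairs with MCTS1, and in flies the complex lets ribosomes that have finished a short upstream open reading frame start again on the main frame. The difference between fractions is a relative measure. RMA, the processing used for these arrays, brings arrays to a like distribution of signals, so a move of most mRNAs on or off ribosomes would not appear in the values. Values below are log2 signals per array and log2 differences, ribosome-bound minus total, with moderated standard errors (SE, n = 2 arrays per group). A gene was called when limma with Benjamini-Hochberg adjustment over all 10262 features gave an adjusted p under 0.05. The spread was pooled over all 4 groups, so SE and p-values do not measure the spread of these 4 arrays alone.

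The first DENR total array stood apart from its replicate. On the first principal component, which held 65.8% of the variance and separated the fractions, it lay at -9.0, the second DENR total array at -27.3 and the control total arrays at -29.6 and -35.1. The ribosome-bound arrays lay between 22.3 and 29.4. The array therefore sat between the fractions, nearer to total RNA. Across the 10262 features its gap to the second array correlated with the control cells' fraction difference, in which neither array takes part (Pearson r = 0.59, Spearman rho = 0.54, slope 0.31; genes are not independent replicates). Results are given with both total arrays and, where it matters, without the first. Whether this array held some ribosome-bound RNA was not tested.

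**Figure D1:**
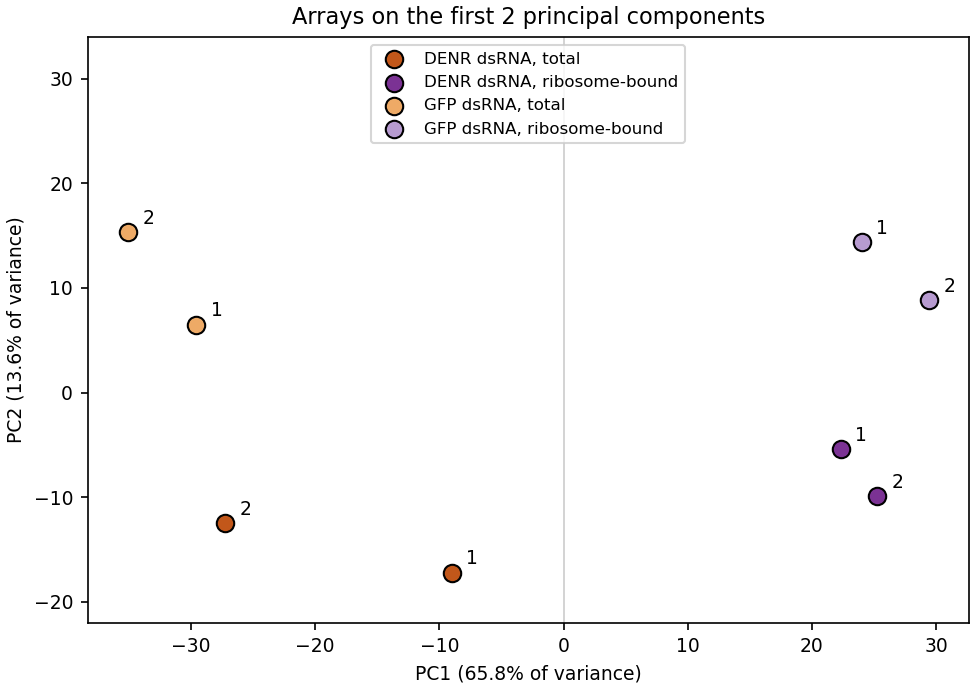
The 8 arrays on the first 2 principal components of the tested features; axes give the component scores and their share of the variance, colours the 4 groups and numbers the replicate. The first DENR total array lies at -9.0 on the first component, between its replicate at -27.3 and the ribosome-bound arrays at 22.3 to 29.4.

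After DENR knockdown, 937 of 10262 features (9.13%) were higher on ribosomes and 600 (5.85%) were lower, together 15.0% of those tested. Among named genes, 825 were higher and 503 lower. Differences of more than 2-fold were found for 377 of the higher and 116 of the lower features. Without the first DENR total array the calls were 1115 higher (10.9%) and 454 lower (4.42%), 15.3% in all, and those beyond 2-fold were 602 and 107. Of the 937 higher features 826 were called again in that fit, and of the 600 lower features 376. The median absolute difference over all features was 0.197 with both total arrays, 0.198 with the first as the only total array and 0.246 with the second. Leaving out the second total array left 505 higher and 349 lower calls, leaving out the first bound array 451 and 158, and leaving out the second bound array 422 and 265.

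The most enriched mRNA among named genes was that of eIF5, the GTPase-activating protein of start codon recognition. Its signal was 5.66 and 5.17 on the total arrays and 7.90 and 7.81 on the bound arrays, a difference of 2.44 ± 0.17 or 5.43-fold (limma, adjusted p = 8.39e-05). Both bound arrays lay more than 2 log2 units above both total arrays. me31B, a DEAD-box helicase of translational repression and RNA granules, read 5.99 and 5.15 in total and 7.91 and 7.76 in bound RNA, 2.27 ± 0.23 higher (limma, adjusted p = 2.78e-04). Atf6, a transcription factor of the endoplasmic reticulum (ER) stress response, read 4.26 and 4.17 against 6.57 and 6.43, 2.29 ± 0.14 higher. For both genes the fractions were far apart, and the total arrays of me31B were spread more widely than its bound arrays.

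The other leading genes covered several kinds of protein. Ulp1, a protease that removes SUMO, was 2.27 ± 0.15 higher, l(2)gl, a tumour suppressor of cell polarity, 2.21 ± 0.21, and Slmap, a subunit of the STRIPAK phosphatase complex, 2.20 ± 0.18. Ank, which couples membrane proteins to spectrin, was 2.17 ± 0.16 higher, tef, needed for chromosome pairing in male meiosis, 2.18 ± 0.17, and cta, a G protein alpha subunit of gastrulation, 2.15 ± 0.25. CG10465 differed by 2.20 ± 0.21. nudE, a dynein regulator, read 2.95 and 2.33 in total and 5.05 and 5.08 in bound RNA, and CG32767 read 3.36 and 2.30 against 5.16 and 5.30. In both, the second total array lay in the range of 112 odorant and gustatory receptor genes, whose 90th percentile of mean signal was 2.60, so these differences of 2.42 ± 0.21 and 2.40 ± 0.29 are lower bounds if that level is background. A second probe set of Ank gave -0.15 and that of CG32767 gave -0.12. Their mean signals, 1.26 and 1.64, lay under that receptor level, so they cannot check the main values. For both genes the difference rests on the probe set used. All 12 genes were called when any 1 array was left out, and also under every other setting in which they were tested.

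The largest difference in the opposite direction was that of DCP2, the enzyme that removes the mRNA cap. Its signal was 7.20 and 7.53 on the total arrays and 3.96 and 3.62 on the bound arrays, a difference of -3.57 ± 0.21 or 11.9-fold lower on ribosomes (limma, adjusted p = 4.77e-05). The fractions did not come within 3 log2 units of each other. HERC2, a large ubiquitin ligase, read 7.41 and 7.38 in total and 4.90 and 5.01 in bound RNA (-2.44 ± 0.21), and CG6707 read 8.26 and 8.52 against 6.10 and 5.94 (-2.37 ± 0.16). Here the replicate arrays lay close together, and the fractions were more than 2 units apart.

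Several large structural and signalling proteins followed. shot, a spectraplakin that joins actin to microtubules, differed by -1.77 ± 0.15, and kuz, the metalloprotease that cleaves Notch, differed by -1.77 ± 0.21. lig, an RNA-binding protein, differed by -1.74 ± 0.21, and CycY, a cyclin, by -1.72 ± 0.17. CG7326 differed by -2.15 ± 0.19. Some values need care because of their probes. CG42674 differed by -2.35 ± 0.22 but its other probe sets gave 0.04 and 1.31, and rdgB, a phosphatidylinositol transfer protein, differed by -1.73 ± 0.27 while its other probe set gave -0.15. The pseudogene 18SrRNA-Psi:CR41602 differed by -2.55 ± 0.24, a value that is uncertain because its probes may also bind ribosomal RNA. These genes kept their calls without any 1 array and under every other setting in which they were tested.

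**Figure D2:**
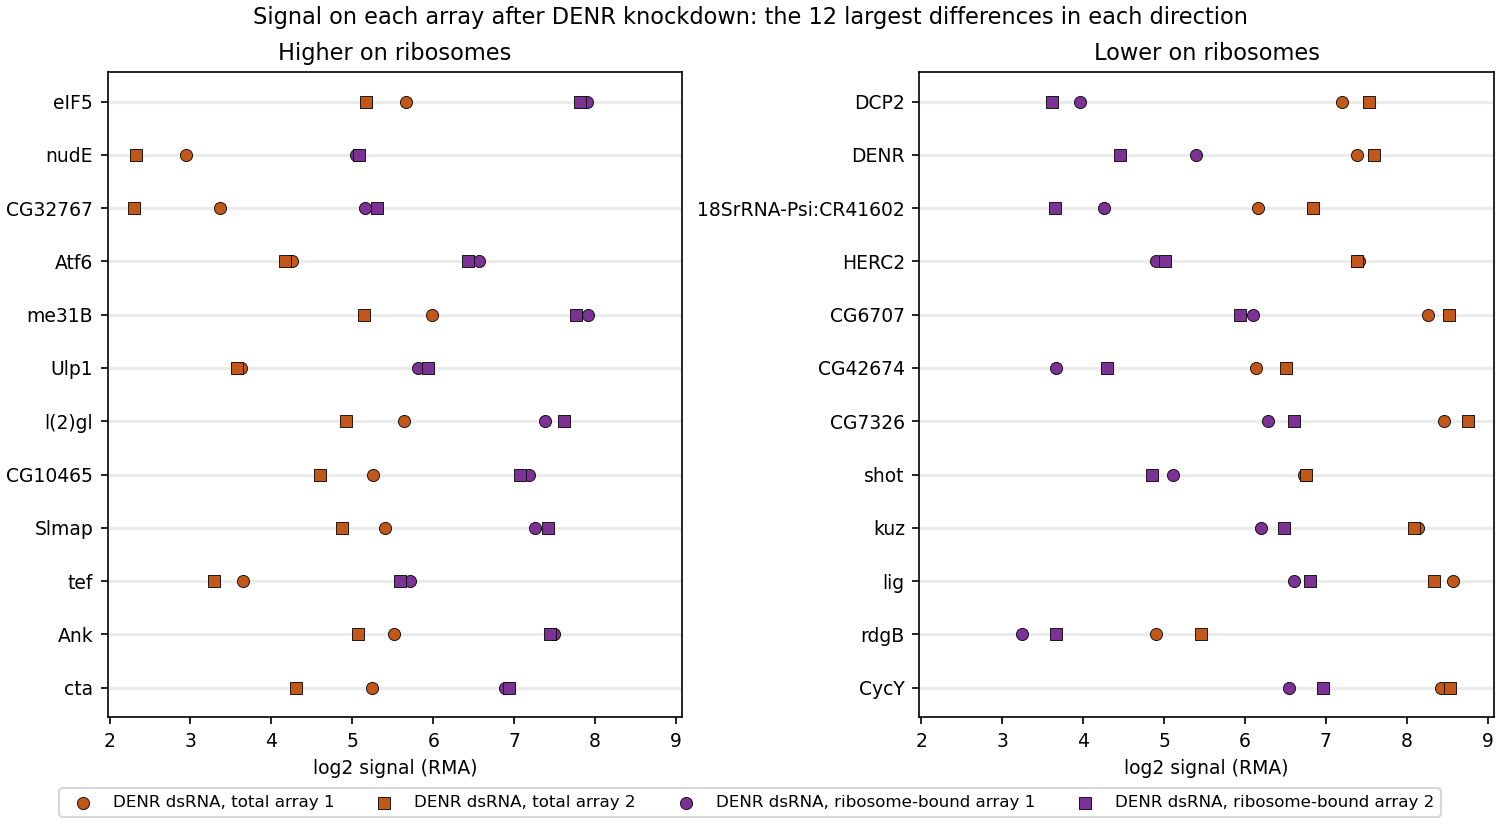
Log2 signal on each of the 4 arrays after DENR knockdown for the 12 genes most enriched and the 12 most depleted on ribosomes; each symbol is 1 array. No gene's fractions overlap, as the rule for choosing them required, and DCP2 shows the widest gap, from 7.20 and 7.53 in total to 3.96 and 3.62 in bound RNA.

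The targeted transcript itself read lower in bound than in total RNA. How much of either signal came from intact DENR mRNA was not tested. DENR read 7.38 and 7.60 in total and 5.40 and 4.46 in bound RNA, a difference of -2.56 ± 0.25 or 5.89-fold lower (limma, adjusted p = 2.23e-04). In control cells the same difference was 0.10, and the difference between treatments of -2.66 did not pass limma with Benjamini-Hochberg adjustment (adjusted p = 0.101). MCTS1, the partner of DENR, went the opposite way, with 6.67 and 6.38 in total and 7.06 and 7.33 in bound RNA, 0.67 ± 0.16 higher (limma, adjusted p = 0.0213). The bound arrays of MCTS1 lay above its total arrays, but the call was lost without the second DENR total array (0.53), the first bound array (0.81) or the second bound array (0.54), with limma adjusted p between 0.0529 and 0.164. eIF2D, a factor related to the DENR and MCTS1 pair, was 0.46 lower at the threshold of the call (-0.46 ± 0.14, limma adjusted p = 0.0459). That call did not hold without 7 of the 8 single arrays, all except the first DENR total array, where limma adjusted p ran from 0.0526 to 0.252. The insulin receptor InR, at 3.09 and 3.25 against 2.83 and 2.99, differed by -0.26 ± 0.14 and was not called (limma, adjusted p = 0.271).

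Among 40 tested translation initiation factors, 4 were higher on ribosomes, 7 were lower and 29 were not called, with a median of -0.12 against -0.02 over all features. The higher share was near the 9.13% over all features, and the lower share was 17.5% against 5.85%. The mRNA of eIF4G1, the scaffold of the cap-binding complex, read 7.05 and 6.74 in total and 8.55 and 8.62 in bound RNA, 1.69 ± 0.19 or 3.23-fold higher (limma, adjusted p = 5.44e-04). eIF4B, a cofactor of the eIF4A helicase, was 1.48 ± 0.21 higher on the probe set used, while its other probe sets gave 0.24, 0.31 and 2.13. Both bound arrays exceeded both total arrays in each case, as they did for eIF5. The mRNA of pAbp, the poly(A)-binding protein, lay on the other side, at 10.52 and 10.41 in total and 9.07 and 8.58 in bound RNA, a difference of -1.64 ± 0.19 or 3.11-fold lower (limma, adjusted p = 5.67e-04). The plot of translation factors shows that most subunits of eIF2B and eIF3 lay within 0.5 of 0. The 4 higher calls became 3 without the first bound array, and without the first total array there were 7 higher and 3 lower calls. The 7 lower calls were less stable, with 1 left, pAbp, without the second bound array.

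Of 11 elongation and termination factors, 2 were higher (18.2%) and 1 lower (9.09%), against 9.13% and 5.85% over all features. eEF1delta, of the exchange complex that recharges eEF1A, read 8.74 and 8.43 against 10.14 and 9.95, 1.46 ± 0.15 or 2.74-fold higher (limma, adjusted p = 2.68e-04). The mitochondrial factors mEFTs and mEFTu1, which act together on the organelle's ribosomes, differed in opposite directions, by 0.75 ± 0.14 and -0.52 ± 0.13. Neither mitochondrial call held without the second bound array, where limma gave 0.73 (adjusted p = 0.0549) for mEFTs; mEFTu1 was also lost without the second total array (-0.41, limma adjusted p = 0.159). Of 30 aminoacyl-tRNA synthetases, which charge tRNAs, 3 were higher and 5 lower with a median of -0.06; the higher share was near the 9.13% over all features, and the lower share was 16.7% against 5.85%. The higher ones were led by CysRS-m at 0.82 ± 0.16 and the lower ones by AlaRS at -0.65 ± 0.13, and without the second bound array none of the 8 was called.

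**Figure D3:**
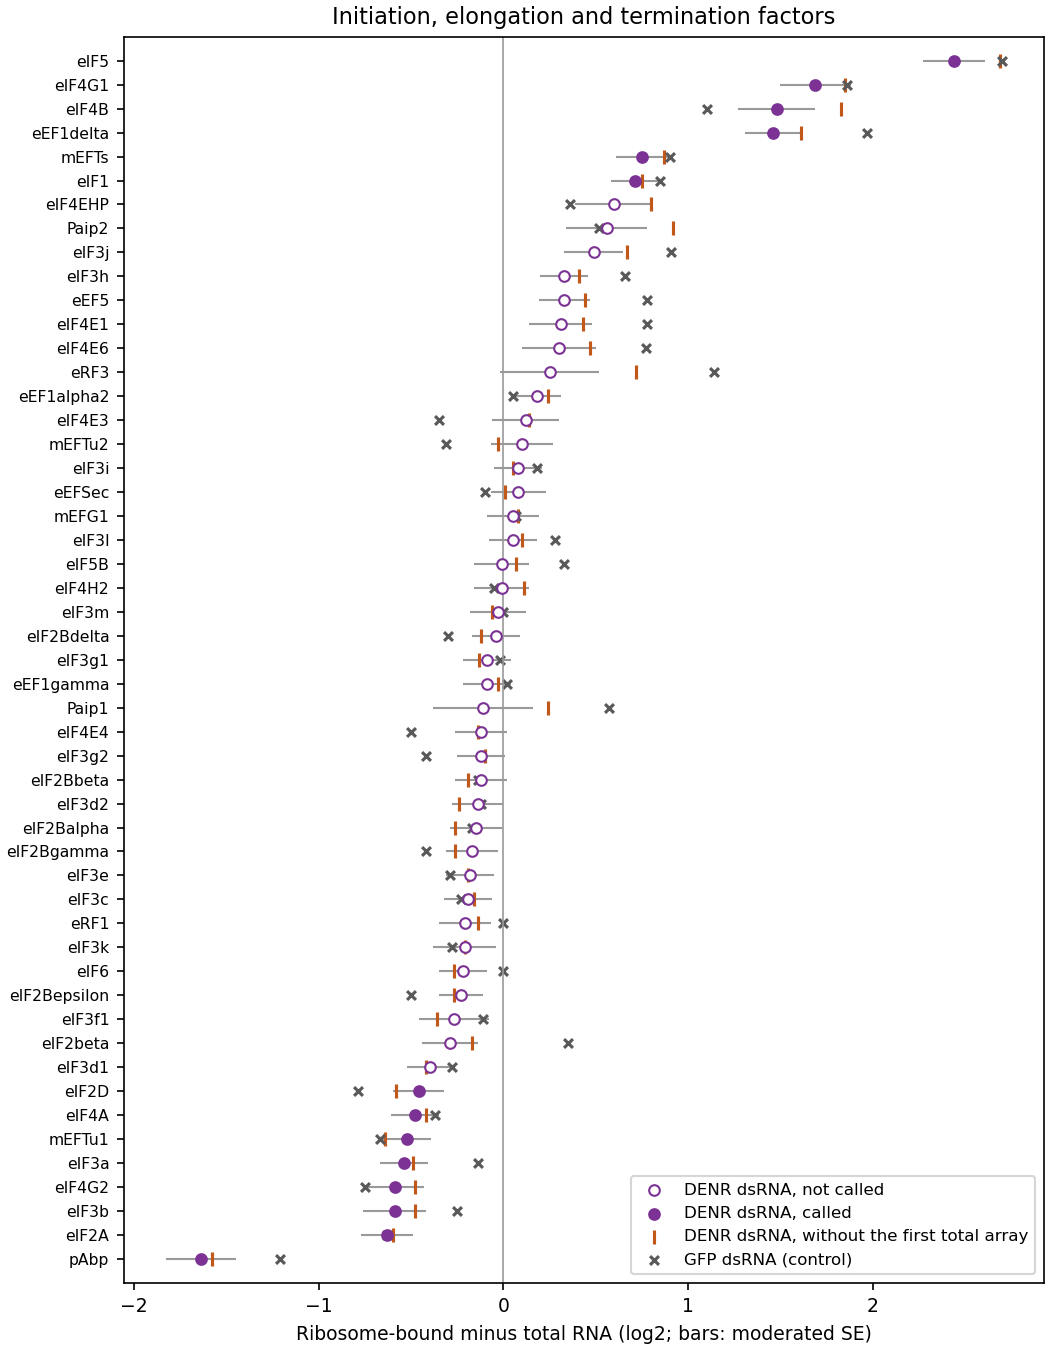
Ribosome-bound minus total RNA (log2) for the tested initiation, elongation and termination factors, with filled points for called and open points for uncalled genes after DENR knockdown, bars for the moderated SE, ticks for the value without the first DENR total array and crosses for control cells. eIF5 at 2.44 and eIF4G1 at 1.69 lie at one end and pAbp at -1.64 at the other.

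Transcripts of the cytoplasmic ribosome were nearly level between the fractions. Of 34 genes for cytoplasmic ribosomal proteins, 0 were higher and 2 lower (5.88%), against 9.13% and 5.85% over all features. Their median was -0.02, with an SD of 0.28 between genes, against 0.46 over all features. RpS18 was the exception that kept its call without any 1 array, at 11.73 and 11.92 in total and 10.86 and 10.24 in bound RNA (-1.28 ± 0.19, limma adjusted p = 0.00204). The other, RpS7, differed by -0.51 ± 0.14 and its call was lost without the first total array (-0.49, limma adjusted p = 0.104), among others. The median signal of this list was 12.06, close to the highest signal of any tested feature, 12.79. How far signals this bright follow the RNA amount was not tested.

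Of 71 mitochondrial ribosomal proteins, 6 were higher (8.45%) and 2 lower (2.82%), with a median of -0.04. Over all features the shares were 9.13% and 5.85%, so neither share of this list was larger. mRpS5 read 4.05 and 3.71 in total and 5.51 and 5.14 in bound RNA, 1.44 ± 0.21 higher (limma, adjusted p = 0.00204). mRpL33 and mRpL55 were 0.98 ± 0.15 and 0.85 ± 0.14 higher. All 3 kept their calls without any 1 array, while both lower calls, mRpS29 and mRpS34, were lost without the second total array or either bound array. In control cells the list ran further down, with 7 higher and 20 lower calls of 71 and a median of -0.25. Without the first DENR total array the knockdown list lay nearer to this, with 6 higher and 5 lower and a median of -0.15. Of 58 subunits of the respiratory chain and ATP synthase, 2 were higher and 3 lower (median -0.04), and none of the higher calls was left without either bound array and none of the lower without the second.

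Of 10 tested members of the mitochondrial import machinery, 4 were higher and 0 lower, against 9.13% and 5.85% over all features, with a median of 0.37. Tim9a, an intermembrane space chaperone, read 8.41 and 8.23 in total and 9.47 and 9.25 in bound RNA, 1.04 ± 0.15 higher (limma, adjusted p = 0.00201). Tim23 and Tim17b, subunits of the inner membrane channel, were 0.74 ± 0.14 and 0.61 ± 0.13 higher. Tim9a was the only one of the 4 still called without the first bound array, where Tim23 differed by 0.73 (limma, adjusted p = 0.0556). The list's median in control cells was 0.55, with 5 of 10 higher.

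Subunits of the proteasome and of the CCT chaperonin lay on the lower side where they were called. Over all features 9.13% were called higher and 5.85% lower. Of 29 proteasome subunits, 4 were lower, 0 higher and 17 had both bound arrays below both total arrays, with a median of -0.24; over all features 28.7% were separated in that direction and 27.1% in the other. Rpt3, an ATPase of the proteasome base, read 9.66 and 9.76 in total and 8.94 and 9.14 in bound RNA (-0.67 ± 0.13, limma adjusted p = 0.00837). Rpn12 and Rpt2 of the same regulatory particle differed by -0.70 ± 0.15 and -0.66 ± 0.14. Of 8 subunits of the CCT chaperonin, which folds actin and tubulin, 3 were lower with differences of -0.51, -0.51 and -0.50, 7 of 8 were separated downwards, and the list median was -0.39. Of the 29 proteasome subunits 4 were lower and 1 higher in control cells, with a median of -0.09. Of the 8 CCT subunits 4 were lower and 0 higher there, with a median of -0.40. The shifts after knockdown were below 2-fold and their calls depended on single arrays. Without the first bound array 0 proteasome subunits were called (Rpt3 at -0.56, limma adjusted p = 0.0894), and without any 1 of the 4 DENR arrays 0 CCT subunits were called.

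Among 11 heat shock chaperones, DnaJ-1, a co-chaperone of Hsp70, was higher at 6.11 and 5.78 against 7.17 and 7.15 (1.22 ± 0.21, limma adjusted p = 0.00439), a call that held without any 1 array. Hsp60A, the mitochondrial chaperonin, was lower by 0.63 on the log2 scale (-0.63 ± 0.14), and this call was lost without the second total array (-0.51, limma adjusted p = 0.0891) or either bound array. Of 14 ER chaperones and unfolded protein response genes, Atf6 was higher and Cnx99A, encoding the lectin chaperone calnexin, lower at -0.75 ± 0.18. Cnx99A was no longer called without the first total array (-0.49, limma adjusted p = 0.0902) or either bound array. Of 18 genes of ER translocation, 3 small proteins, Sec61gamma, Srp9 and Sec61beta, were higher by 0.62 ± 0.13, 0.56 ± 0.16 and 0.48 ± 0.13 and 0 were lower. None of these 3 was called without the second total array or without either bound array. Of 23 subunits of the vacuolar ATPase, which acidifies lysosomes, 2 were higher (8.70%) and 4 lower (17.4%), against 9.13% and 5.85% over all features. Vha26 read 6.33 and 5.72 in total and 7.35 and 7.47 in bound RNA (1.38 ± 0.19) and kept its call without any 1 array, while no lower call was left without the first bound array.

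In total RNA all 12 haemocyte markers lay above the 90th percentile of the receptor genes, as did 4 of 6 neuronal, 3 of 5 germline, 2 of 5 fat body and 0 of 5 muscle markers, so passing this low level does not by itself mark a cell type. Of 20 haemocyte genes tested between the fractions, 6 were higher on ribosomes, 3 lower and 11 not called, against 9.13% higher and 5.85% lower over all features. eater, a receptor for bacteria on phagocytes, read 5.16 and 4.94 in total and 7.22 and 6.97 in bound RNA, 2.04 ± 0.18 or 4.13-fold higher (limma, adjusted p = 1.50e-04). The scavenger receptor Sr-CI was 1.56 ± 0.18 higher, and He, a haemocyte surface protein, read 4.32 and 4.26 against 5.27 and 5.53, 1.11 ± 0.14 higher. In all 3 the bound arrays lay clear of the total arrays, and no single array removed a call. With the second total array or either bound array left out, 3 of the 6 higher calls were left.

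The lower haemocyte genes were those of the secreted basement membrane. vkg and Col4a1, the chains of collagen IV, read 10.69 and 10.63 against 9.66 and 9.67, and 9.94 and 9.79 against 8.90 and 9.01. The differences were -0.99 ± 0.16 and -0.91 ± 0.15 (limma, adjusted p = 0.00275 and 0.00384), and both held without any 1 array. Ppn, papilin, differed by -0.87 ± 0.22, and was not called without the first total array (-0.70, limma adjusted p = 0.0969) or either bound array. Of 11 basement membrane genes, 4 were lower and 0 higher, against 5.85% and 9.13% over all features, with a median of -0.30 and a highest difference of 0.51. Without the first total array 2 were lower and 1 was higher, and in control cells 3 were lower and 3 higher with a median of 0.10. LanB2, the laminin gamma chain, differed by -0.94 ± 0.21 and was not called without the first total array (-0.75, limma adjusted p = 0.0677) or either bound array. Counts for the haemocyte and basement membrane lists overlap, since both hold the collagen chains and papilin.

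Regulators of transcription and signalling were spread over both directions. Of 49 protein kinases, 10 were higher and 5 lower (20.4% and 10.2%, against 9.13% and 5.85% over all features), with a median of 0.03. SAK, the kinase of centriole duplication, read 3.07 and 2.02 against 4.40 and 4.34 (1.83 ± 0.27), its second total array lying at receptor level. Dyrk3 and mnb, both of the DYRK family, were 1.58 ± 0.22 and 1.44 ± 0.23 higher. The other probe sets of mnb gave -0.07, -0.25 and -0.30, at mean signals of 2.24, 1.79 and 3.84. Akt, the central kinase of insulin signalling, read 6.68 and 6.95 in total and 5.32 and 5.05 in bound RNA, a difference of -1.63 ± 0.20 or 3.10-fold lower (limma, adjusted p = 6.73e-04). S6k, a kinase downstream of TOR that phosphorylates the ribosome, read 7.67 and 7.54 against 6.68 and 6.57 (-0.98 ± 0.15). The 5 kinases just named kept their calls without any 1 array. The kinase counts did not, with 14 higher without the first total array, 4 higher without the second and 2 lower without the first bound array.

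Akt and S6k account for 2 of the 3 lower genes among 10 of insulin and TOR signalling. The third, gig, the TSC2 homologue that restrains TOR, differed by -0.67 ± 0.19. chico, the insulin receptor substrate, was the only higher one at 0.84 ± 0.22, with 3.06 and 2.87 in total and 3.94 and 3.67 in bound RNA. The chico call was lost without the second total array (0.75, limma adjusted p = 0.131) or either bound array. That of gig was lost without either DENR total array (-0.63 without the first, limma adjusted p = 0.106), either DENR bound array or either control bound array. In control cells chico differed by 2.20, and the difference between treatments was not called.

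Of 38 transcription factors, 4 were higher (10.5%) and 6 lower (15.8%), against 9.13% and 5.85% over all features, with a median of 0.00. Stat92E, the fly STAT protein, read 6.46 and 5.31 in total and 7.48 and 7.59 in bound RNA (1.65 ± 0.30, limma adjusted p = 0.00596), with total arrays more than 1 unit apart. crc, the fly ATF4, whose own mRNA carries regulatory upstream open reading frames, read 9.70 and 9.10 against 10.60 and 10.56 (1.18 ± 0.18, limma adjusted p = 0.00261). zfh1, a zinc finger homeodomain repressor, read 7.88 and 7.88 against 6.91 and 6.53 (-1.16 ± 0.18, limma adjusted p = 0.00235). These 3 kept their calls without any 1 array. chinmo was -1.35 ± 0.25, with -1.12 and -0.01 on its other probe sets, and lost its call without the second bound array (-1.13, limma adjusted p = 0.0589). Without the first total array the counts turned to 9 higher and 2 lower.

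Of 12 genes of the ATF4 and integrated stress response list, 2 were higher (16.7%) and 0 lower, with a median of 0.07. Over all features 9.13% were higher and 5.85% lower. Without the first total array the median of the list was 0.25. The list ran higher in control cells, with 5 of 12 genes higher (41.7%), 0 lower and a median of 0.40. The second call beside crc was PPP1R15, which directs the phosphatase that restores eIF2, at 0.59 ± 0.15, lost without the second total array (0.42, limma adjusted p = 0.180) or either bound array. Of 9 ecdysone signalling genes, 2 were higher (22.2%) and 1 lower (11.1%). The nuclear receptor Hr39 was higher at 4.99 and 4.50 against 6.40 and 6.38 (1.64 ± 0.17, limma adjusted p = 2.96e-04). Its other probe sets gave 0.49, 0.42 and 0.49, at mean signals of 2.24, 2.79 and 2.05. EcR, the ecdysone receptor, was 0.92 ± 0.27 higher at the threshold (limma, adjusted p = 0.0457) and was not called without the second DENR total array (0.58), without either control bound array (0.92), or without the first (0.63) or second (1.21) DENR bound array, with limma adjusted p from 0.0519 to 0.297. br, the early ecdysone factor, differed by -0.89 ± 0.19 on the probe set used and by -0.29 to 0.41 on the others, and was lost without the first total array (-0.71, limma adjusted p = 0.0543) or the first bound array.

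The remaining lists held few calls, where over all features 9.13% were higher and 5.85% lower. PolA1, the catalytic subunit of DNA polymerase alpha, read 4.68 and 4.36 against 5.56 and 5.82 (1.16 ± 0.17, limma adjusted p = 0.00203) and was 1 of 3 higher genes, beside 2 lower ones, among 26 of cell cycle and replication. It was the only one of these 5 that was called without either bound array. Upf1, the helicase of nonsense-mediated decay, read 6.0 and 5.51 against 4.21 and 4.64 (-1.33 ± 0.27, limma adjusted p = 0.00970), and was not called without the first bound array (-1.12, limma adjusted p = 0.0941). The other 2 decay genes tested were not called. Of 24 nuclear pore genes 1 was higher and 2 were lower, of 13 actin and tubulin genes 0 and 2, of 10 immune genes 1 and 1, of 7 SR proteins and U2AF subunits 0 and 1, of 9 glycolytic enzymes 0 and 0, and of 2 histone genes 0 and 0. None of the actin and tubulin, SR protein or lower immune calls held without either bound array, and none of the nuclear pore calls without the second. The higher immune gene was Stat92E. Of markers of other cell types 1 of 5 neuronal genes was lower, 1 of 3 germline genes and the only muscle gene tested were higher, and 0 of 4 fat body genes were called. The neuronal and germline calls were lost without either bound array.

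Of 30 noncoding RNAs, which are defined by the lack of a long reading frame, 5 were higher on ribosomes (16.7%, against 9.13% over all features) and 1 lower, with a median of 0.05. Few genes stand behind this share. lncRNA:CR30055 read 5.46 and 5.17 in total and 6.19 and 6.35 in bound RNA (0.96 ± 0.14, limma adjusted p = 0.00208) and kept its call without any 1 array. lncRNA:CR42862 was 1.18 ± 0.22 higher on the probe set used, and its other probe sets gave 0.47 and -0.14. Without the second total array, or without the second bound array, 2 of the 5 calls were left. Of 26 tested odorant and gustatory receptors, which served as a level for silent genes, 1 was higher and 2 lower. One of them, Gr61a, was not silent, with 6.96 and 7.32 in total and 6.26 and 5.95 in bound RNA (-1.03 ± 0.17, limma adjusted p = 0.00382).

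Genes of chromosome 4, a small, largely heterochromatic autosome, were higher on ribosomes as a group. Of 41 tested genes there, out of 65 on the array, 24 (58.5%) were higher and 0 lower, with a median of 0.78. On the other chromosomes 797 of 8084 genes (9.86%) were higher and 502 (6.21%) lower, with a median of -0.02. All 41 differences were above 0 on the probe set used, from 0.02 for Mitf to 2.17 for Ank. In 38 both bound arrays lay above both total arrays, as they did in 27.1% of all features. Dimmer probe sets of Ank (-0.15), CG1674 (-0.03), ATPsynbeta (-0.09) and Rnf11 (-0.35) were below 0. Those of PMCA gave -0.24 and 1.36, those of PlexB 0.43, 0.35 and -0.03, and that of CG11360 0.09. Without the first total array ey and Mitf, both near background, came out at -0.12 and -0.02. The grouping by chromosome arm was planned, but the genes of chromosome 4 named here were chosen after their values were seen. Without the first total array 25 of the 41 were higher, and over all fits without 1 array the count lay between 19 and 27.

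Among its members were further translation regulators. 4E-T, which binds the cap-binding protein eIF4E, read 4.64 and 4.62 in total and 6.46 and 6.24 in bound RNA (1.71 ± 0.17). gw, the GW182 protein of microRNA silencing, read 6.72 and 6.30 against 7.09 and 7.23 (0.66 ± 0.17), and its call was lost without the second total array (0.44, limma adjusted p = 0.170) or either bound array. eIF4G1 and the kinase Dyrk3 also lie on this chromosome. Zyx, zyxin, a protein of focal adhesions, read 5.65 and 5.49 against 7.28 and 7.28 (1.71 ± 0.15), Taf3, a TFIID subunit, 5.49 and 5.16 against 6.70 and 6.69 (1.37 ± 0.14), and Cals, calsyntenin, 4.28 and 4.13 against 5.60 and 5.79 (1.49 ± 0.13). In each of these the replicate arrays agreed within 0.4 and the fractions were more than 1 unit apart. bt, the giant muscle protein projectin, was the muscle gene counted above, at 2.76 and 2.25 against 4.17 and 3.99.

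The pattern was also present in control cells, where 32 of the 41 genes (78.0%) were higher, 0 were lower and the median was 1.29. Long genes were common in the group. Of the 41 genes, 27 lay in the longest of 5 equal classes of annotated gene span, introns included, and 16 of those 27 were higher, against 13.0% of all genes in that class. Over 5 equal classes of signal the 41 genes fell 4, 12, 12, 8 and 5 from dim to bright. The part that span, probe design or nuclear RNA may have in the result was not tested. On the X chromosome 82 of 1371 genes (5.98%) were higher and 123 (8.97%) lower, with a median of -0.06, whereas on each of the arms 2L, 2R, 3L and 3R more genes were higher than lower. After knockdown this excess of lower calls on X was absent without the first total array. The median on X was then -0.09, against 0.03 on 2L and -0.03 on each of 2R, 3L and 3R. In control cells 216 genes on X were lower (15.8%) and 184 higher (13.4%), with a median of -0.11.

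**Figure D4:**
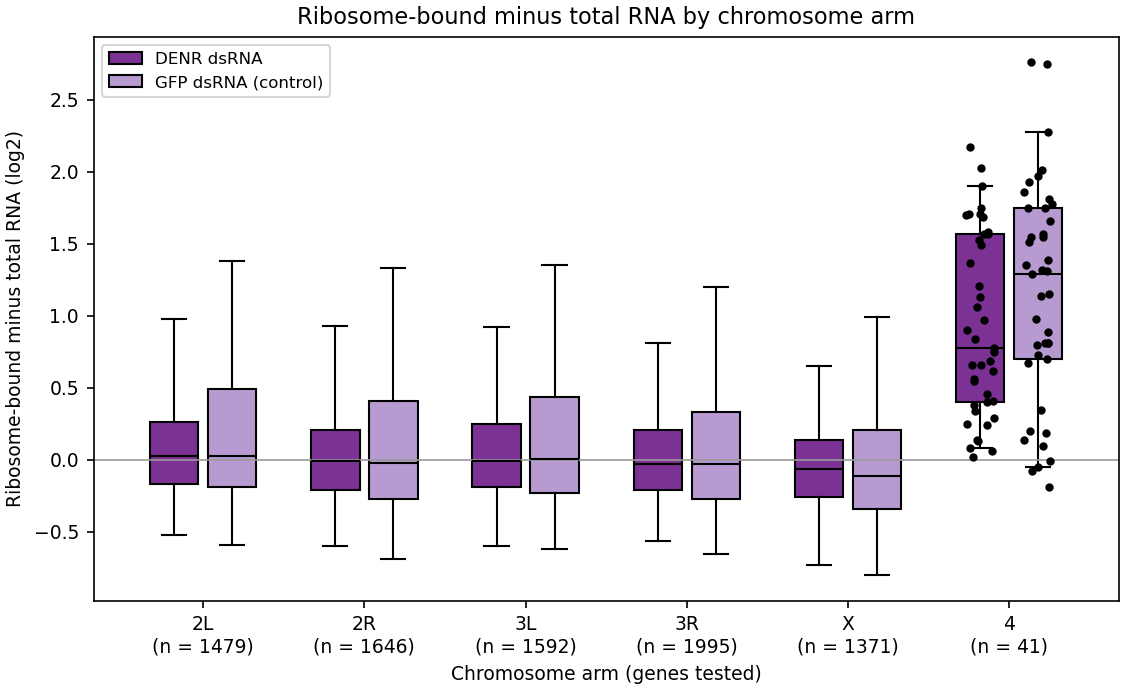
Ribosome-bound minus total RNA (log2) by chromosome arm after DENR knockdown and in control cells; boxes span the quartiles with the median, whiskers the 5th to 95th percentiles, and points are the 41 genes of chromosome 4. The chromosome 4 boxes lie above those of the other arms, with medians of 0.78 and 1.29.

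Annotated gene span, taken from RefSeq after the values had been seen, went with the share of calls. From the shortest to the longest of 5 equal classes, with median spans from 904 to 14534 bases, the share of genes lower on ribosomes was 2.21, 3.76, 5.42, 8.62 and 10.9%, and the share higher was 8.66, 8.50, 7.82, 12.6 and 13.0%. Without the first total array these classes, of nearly equal size, held 42, 59, 61, 85 and 122 lower calls. In control cells the lower share did not rise with span, at 11.4, 14.4, 12.7, 9.98 and 9.91%. The higher share there was 12.8, 16.8, 18.4, 28.8 and 25.7%, and so was larger in the longer classes, as after knockdown. Calls also depended on signal, with 0.731% higher and 0.682% lower in the dimmest of 5 equal classes of features and 17.9% and 6.29% in the middle class. The shares by span are descriptions of these arrays, and the part that signal has in them was not tested.

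The same fractions of control cells were compared to see where the knockdown cells differ. In control cells 1915 features were higher (18.7%) and 1125 lower, 29.6% in all. Of the 937 features higher after DENR knockdown 864 (92.2%) were also higher in control cells, which is 45.1% of the control list. Of the 600 lower ones 391 (65.2%) were also lower there, 34.8% of the control list. Across all features the contrasts, which share no array but share the pooled spread, had r = 0.82 and rho = 0.69, and the knockdown differences were smaller, with a slope of 0.63. The slope was 0.79 without the first DENR total array and 0.48 without the second, each below 1. The distance between these slopes restates the slope of 0.31 given above for the gap between the DENR total arrays. It is therefore not a separate result. Why the knockdown differences were smaller was not tested.

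The test of the difference itself called 0 of 10262 features (0%) by limma with Benjamini-Hochberg adjustment, and 1022 had an unadjusted p under 0.05, of which 333 were higher and 689 lower after knockdown. Up to 2 features in a direction were called under other settings or with 1 array left out. The genes of smallest p are given as values. DENR came first among those relatively lower on ribosomes after knockdown, followed by Wnk, Tsp3A and shep. shep, an RNA-binding protein, read 5.66 and 5.65 in total and 4.06 and 4.15 in bound RNA, -1.55 ± 0.12 against -0.68 in control cells. Its other probe sets gave 0.01, -0.07 and 0.14, at mean signals of 1.70, 3.38 and 1.94. Wnk, a kinase of ion balance, differed by 0.68 ± 0.14 against 1.74.

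On the other side stood genes with a larger negative difference in control cells. NimB3, a secreted Nimrod protein, read 4.05 and 4.04 in total and 4.09 and 4.01 in bound RNA after knockdown, a difference of 0.00 ± 0.13, against -1.04 in control cells. Fa2h, a fatty acid hydroxylase, differed by -0.62 ± 0.17 against -2.19, CG12116 by -0.70 ± 0.15 against -2.04, and CG15423 by -0.38 ± 0.13 against -1.64. None of these differences between treatments passed limma with Benjamini-Hochberg adjustment.

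**Figure D5:**
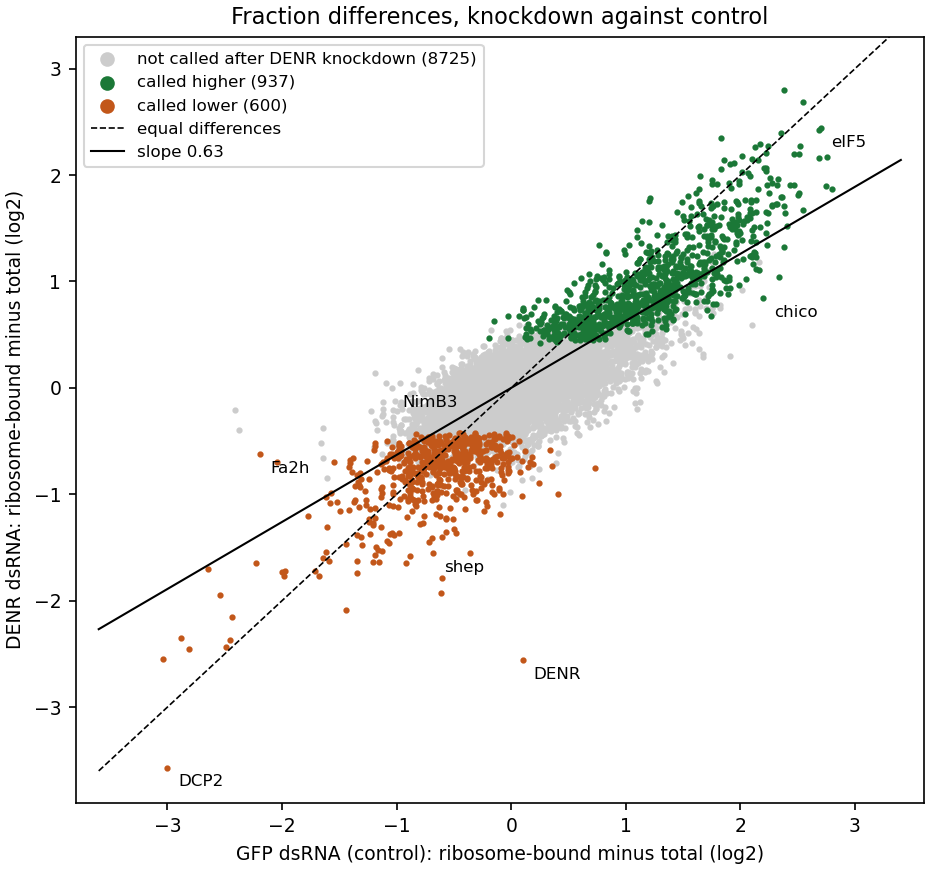
Ribosome-bound minus total RNA (log2) after DENR knockdown against control cells for the 10262 features, coloured by the call after knockdown; the dashed line marks equal differences and the solid line the slope of 0.63. DENR lies apart, at -2.56 after knockdown and 0.10 in control cells. DCP2 is the lowest point after knockdown, at -3.57, and the other labelled genes keep to the cloud or its edge.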

How the data were processed

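The authors deposited log2 signals, 1 value for each probe set and array, made with RMA according to the submitters' processing notes, from Affymetrix arrays of biotinylated cRNA. Version, settings and whether the 8 arrays were normalized together are not given in the sources used here; the log2 scale was read from the range, 0.83 to 12.88, with array medians of 2.32 to 2.48. No detection calls or probe-level signals were used, and precision is limited by the small number of arrays. Of 18952 probe sets 183 control sets were left out; of the rest 13647 had 1 gene symbol, 402 several and 4720 none. Symbols were updated by gene identifier through a RefSeq table of Release 6 (13544 matched), which also gave chromosome arm and gene span. No coordinates or sequences are printed, and protein features were not analysed here.

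Where a gene had several probe sets (1094 genes), the brightest by mean signal stood for it. Of 17104 features the brightest 60% (mean at least 2.12) were fitted with limma 3.58.1 (R 4.3.3) as 4 group means over all 8 arrays, with 4 residual and 5.93 prior degrees of freedom, two-sided tests and Benjamini-Hochberg adjustment over 10262 features. The contrasts were ribosome-bound minus total RNA after DENR knockdown, the same in control cells, and their difference. The script was tested on simulated data. Lists are described by counts and medians, with no test of a list.

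The members and gene lists were chosen with earlier results of these data known. Named genes are DENR, MCTS1, eIF2D, InR, EcR and mbc (mbc was not among the tested features); the 12 largest rises and falls among called genes whose arrays do not overlap; up to 3 called members of each list in each direction; the 4 of smallest p in each direction for the difference; and the 4 with the largest gap in each direction between the DENR total arrays. Alternatives were replicate blocks, a random block, other filters, all probe sets, 3 other normalizations, a robust prior with an intensity trend, testing against a 1.5-fold minimum, fits to the compared arrays alone, and leaving out each array in turn. Figures used matplotlib 3.10.9.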

Additional observations from a re-analysis of the deposited data

Results flagged for a closer look

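Tsp3A, a tetraspanin, had its bound arrays below its total arrays after DENR knockdown and above them in control cells. After DENR knockdown it read 3.20 and 3.16 in total and 2.92 and 3.01 in bound RNA, a difference of -0.22, and in control cells 2.52 and 2.52 in total and 3.50 and 3.17 in bound RNA, a difference of 0.81. The difference between treatments was -1.03 and did not pass limma with Benjamini-Hochberg adjustment (adjusted p = 0.473). The knockdown difference was not called (limma, adjusted p = 0.384), and both control total values lay under 2.60, the 90th percentile of the receptor genes.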

How the results depend on the processing

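After knockdown, the counts of 937 higher and 600 lower ran from 422 to 1115 and from 158 to 631 with 1 array left out, and became 157 and 43 with a minimum of 1.5-fold. Lower calls became 284 with a culture replicate block and 371 with array medians centred (868 higher), and the share of higher among calls moved with these. In control cells the ranges were 1162 to 2038 higher and 510 to 1213 lower, with 472 and 76 at 1.5-fold, 670 lower with the culture replicate block and 711 with centred medians. For the difference between treatments, higher calls were 1 with a replicate block, no filter or a trend with a robust prior and 0 to 1 with 1 array left out. Lower calls were 2 with the trend, 1 with the crossed culture replicate block and 0 to 1 with 1 array left out. Chromosome 4 calls were 13 of 41 at 1.5-fold and 13 of 19 at a mean of at least 5. The cause of each change was not tested. Same-numbered fractions deviated in opposite directions (r = -0.31 and -0.20), while same-numbered arrays of the 2 treatments deviated together (0.38 in total, 0.27 in bound RNA). Whether the numbers pair fractions of 1 culture is not stated. With 2 arrays per group, 1 of them the DENR total array that stood apart, these correlations cannot decide it. A replicate block gave 854 higher and 489 lower; the crossed block, added after seeing the data like the minimum mean of 5, gave 1236 and 864. Of 124 named genes called, 54 stayed called without any 1 array and 36 under all other settings; 88 lost their call at 1.5-fold. No called gene among those named changed sign. Dim probe sets limit detection, since no detection calls were used.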

Other observations

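Abca3, an ABC transporter gene outside the naming rule and chosen after its values were seen, was the only feature called in opposite directions by the 2 treatments. It read 4.21 and 3.65 in total and 3.03 and 3.34 in bound RNA after DENR knockdown (-0.75 ± 0.22, with a limma adjusted p just under the threshold), and differed by 0.73 in control cells (limma, adjusted p = 0.0330). The difference between treatments, -1.48, did not pass limma with Benjamini-Hochberg adjustment (adjusted p = 0.480). The knockdown call was lost without the first DENR total array (-0.47, limma adjusted p = 0.218), either bound array or either control total array.

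The genes with the largest gaps between the DENR total arrays were Cad87A (4.36 on the first and 2.70 on the second), tgo (4.96 and 3.46), pod1 (4.24 and 2.78) and Spec2 (4.24 and 2.87). All 4 were higher on ribosomes in control cells, by 1.67 to 1.80. After knockdown only pod1 was called among them (1.73 ± 0.36, limma adjusted p = 0.0100), and not without the first bound array (1.60, limma adjusted p = 0.0828). In the other direction the gaps were smaller, with Tsp42Eo at 2.32 and 3.09, CG13725 at 1.82 and 2.58, CG42694 at 2.18 and 2.93, and CG34382 at 1.99 and 2.72.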
